A study of Arabidopsis thaliana with 12 samples.

Results

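Transcripts of 3 nuclear genes for plastid proteins that degrade or fold other proteins were followed in Arabidopsis thaliana: CLPS1 (locus AT1G68660), TIG (AT5G55220) and SPPA (AT1G73990). They were chosen by locus, with earlier results of these data known, among genes measured by a probe that the platform annotation assigns to exactly 1 gene. The array held 3439 probes, of which 690 had 1 gene with a known locus, covering 689 genes. All 3 genes were found, each on 1 probe. CLPS1 and TIG are the usual names of loci that the annotation lists by number only.

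The samples were total RNA of Columbia 0 wild-type plants in 2 conditions. The cold group had spent 24 h under medium light with the temperature held at 4 °C, a treatment the labels call photoinhibitory: light then damages photosystem II faster than the plant can repair it. The recovery group had been through the same 24 h of cold and afterwards spent 24 h under medium light at 20 °C. Each group had 6 samples, and there was no group of plants kept out of the cold. The labels do not name the tissue or the age of the plants, nor say whether plants were pooled or samples came from separate plants, so p-values speak only of how far these samples scatter, and that scatter may be technical.

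Plastids import most of their proteins from the cytosol and must fold them, remove damaged ones and renew those that light destroys. In the stroma, the Clp protease unfolds its substrates with ClpC chaperones and cuts them in a barrel of ClpP and ClpR subunits. CLPS1 is an adaptor that selects substrates for this protease, and CLPF is its partner in that role. TIG resembles the bacterial trigger factor, a chaperone that meets new chains as they leave the ribosome. SPPA is a serine protease of the thylakoid membrane, first described in Arabidopsis as increased by light.

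The deposited values are linear signals. Cold samples had medians of 0.276 to 0.315 and recovery samples had 0.0971 to 0.128, and 5.26% to 6.57% of probes were listed at 0 in cold samples against 11.3% to 16.4% in recovery. The samples were therefore quantile normalized on the scale of log2(signal + 0.0415), so that a change is measured against the rest of the array. Within a group, neighbouring numbers (1 with 2, 3 with 4, 5 with 6) correlated in cold (r of 0.336 to 0.503 between deviations from the group mean). In recovery r was -0.033 to 0.063, above that with any other recovery sample (at most -0.208). Among the brightest 25% of probes r was 0.721 to 0.850 in cold and 0.293 to 0.432 in recovery. Each such pair was averaged in both groups as the choice that counts fewer samples, giving n = 3 per group. On this scale 40.7% of all probes had an adjusted p below 0.05 in limma (Benjamini-Hochberg over the whole table), 21.4% as higher and 19.3% as lower in recovery. Against that background 2 of the 3 genes, CLPS1 and TIG, rose and SPPA did not pass. Green tissue was represented on the array: the antenna gene LHCB1.5 stood at percentile 97.8 or above in every sample. The other green markers stood lower, PSAN at 82.7 to 87.7 in cold and 96.3 to 98.2 in recovery. PRK stood at 60.6 to 73.8 in cold and 85.8 to 87.8 in recovery. Root markers had no probe of their own and were not analysed here.

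CLPS1 rose, and it was the one gene of the 3 whose deposited signal also rose. Its deposited signal in the 6 cold samples had a lowest value of 0.486, a median of 0.574 and a highest value of 0.723. In the 6 recovery samples the lowest value was 0.667, the median 0.853 and the highest 0.892. The groups overlapped only because recovery sample 4 (0.667) lay below cold sample 5 (0.723). The mean of the averaged pairs went from 0.590 ± 0.0884 to 0.823 ± 0.0814 (SD, n = 3), a ratio of 1.40. Tested as deposited, the change was 0.46 ± 0.14 on the log2 scale (SE; n = 3 pair means per group; limma, adjusted p = 0.0307), a rise that 5.58% of all probes showed without scaling, while 58.9% fell.

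Relative to the other probes the change of CLPS1 was larger. After quantile normalization the rise was 1.33 ± 0.18 in log2 units (SE; n = 3 pair means per group), a 2.52-fold change with a 95% interval of 1.91 to 3.32 (limma, adjusted p = 2.32e-04). On this scale its 6 recovery values, -0.074 to 0.24, all lay above its 6 cold values, -1.49 to -0.79. Such a complete separation upwards was seen in 19.0% of all probes. The change of CLPS1 was exceeded by 188 of the 3439 probes, which puts it at percentile 94.5 of all changes. Samples of a pair differed by at most 0.22 on the log2 scale, less than the change.

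**Figure D1:**
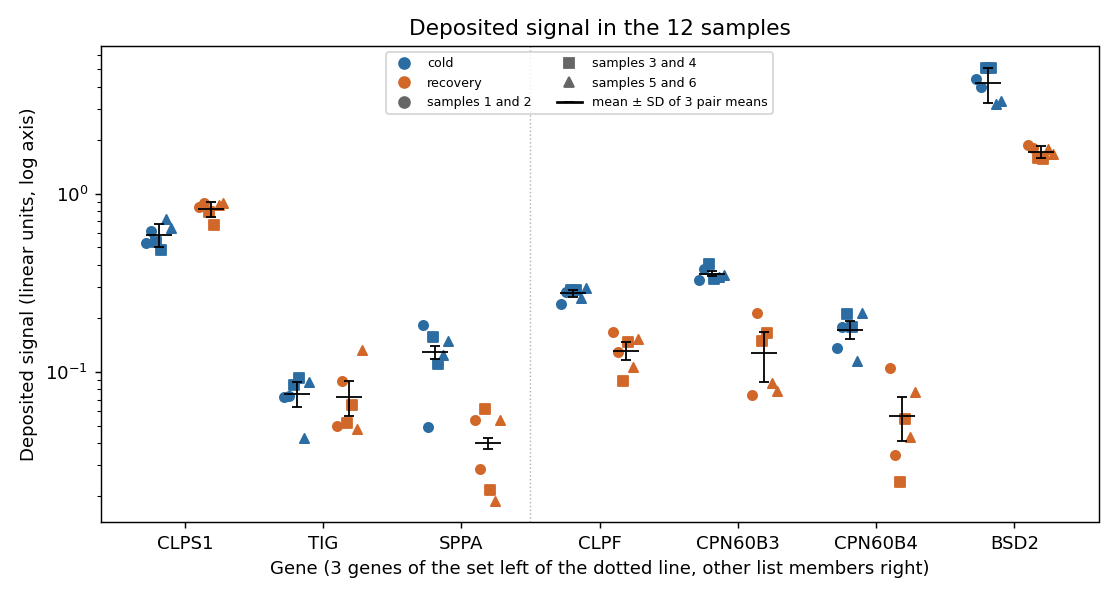
Deposited signal of 7 plastid protease and chaperone genes in each of the 6 cold (blue) and 6 recovery (orange) samples, on a log axis; symbols mark the pairs of samples that were averaged, and bars show the mean ± SD of the 3 pair means. CLPS1 was higher in recovery (mean 0.823 against 0.590) and TIG overlapped (0.0726 against 0.0753). BSD2, CLPF, CPN60B3 and CPN60B4 were lower in every recovery sample than in any cold sample, as were 49.2% of all probes. Levels of different genes cannot be set against each other.

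TIG rose in relation to the other probes, whereas its deposited signal did not pass the test. In cold the deposited signal had a lowest value of 0.0424, a median of 0.0789 and a highest value of 0.0919. In recovery the lowest value was 0.0476, the median 0.0584 and the highest 0.132. The groups thus overlapped over most of their range, with the highest value in recovery sample 6 and the lowest in cold sample 5. The pair means were 0.0753 ± 0.0119 in cold and 0.0726 ± 0.0159 in recovery (SD, n = 3), a ratio of 0.964. As deposited the change was -0.062 ± 0.17 (SE; n = 3 pair means per group; limma, adjusted p = 0.772), with a 95% interval from -0.48 to 0.36, whereas the median probe stood at -0.86.

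After quantile normalization the rise of TIG was 1.15 ± 0.24 in log2 units (SE; n = 3 pair means per group; limma, adjusted p = 0.00359), a 2.21-fold change with a 95% interval of 1.53 to 3.21. Its 6 recovery values, -3.05 to -1.89, all lay above its 6 cold values, -4.06 to -3.54, as for 19.0% of all probes. Single pairs were uneven. Recovery samples 5 and 6 differed by 0.95 on the log2 scale and cold samples 5 and 6 by 0.52. TIG was a dim gene, with no signal above 0.132 against a pseudocount of 0.0415. Halving the pseudocount gave a rise of 1.48 and doubling it one of 0.83, and both passed the test.

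The deposited signal of SPPA fell about as much as that of the median probe, and its change relative to the other probes did not pass. In cold its deposited signal had a lowest value of 0.0488, a median of 0.136 and a highest value of 0.183. In recovery the lowest value was 0.0190, the median 0.0410 and the highest 0.0621. The groups overlapped only through cold sample 2 (0.0488), which lay inside the range of recovery and far from its pair partner, cold sample 1 (0.183). The deposited signal fell to a ratio of 0.309, from 0.129 ± 0.0114 to 0.0398 ± 0.00290 (SD of pair means, n = 3), and 3 of the 6 recovery values lay below the pseudocount. As deposited the fall was -1.04 ± 0.16 on the log2 scale (SE; n = 3 pair means per group; limma, adjusted p = 0.00220), close to the -0.86 of the median probe.

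Relative to the other probes the change of SPPA was 0.12 ± 0.25 on the log2 scale (SE; n = 3 pair means per group; limma, adjusted p = 0.704), with a 95% interval from -0.43 to 0.68. Changes of up to 1.60-fold upwards and down to 0.745-fold thus lie within that interval. Samples of a pair differed by up to 1.21 in cold and 0.67 in recovery on the log2 scale, more than the SD of the pair means (0.19 and 0.20). The 6 recovery values (-3.47 to -2.53) and the 6 cold values (-3.99 to -2.78) overlapped over most of their range. Without cold sample 2 the change was -0.077 (limma, adjusted p = 0.826).

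**Figure D2:**
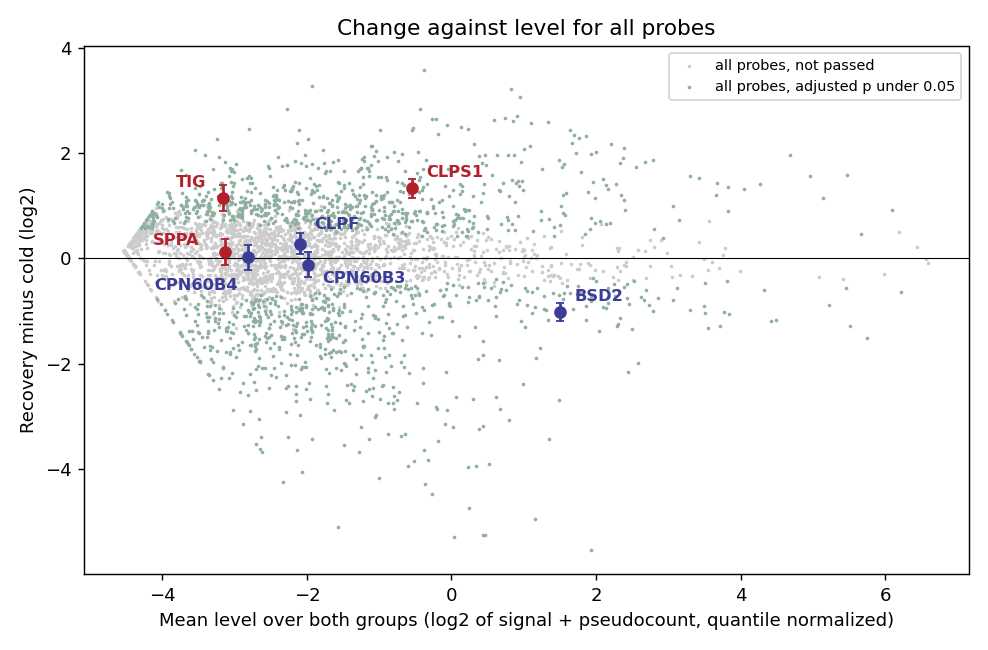
Change between recovery and cold (vertical axis, log2) against the mean level over both groups (horizontal axis, log2 of signal plus pseudocount, quantile normalized) for all 3439 probes; bars on the named genes are ± SE. CLPS1 (1.33) and TIG (1.15) lie among the probes that rose, SPPA (0.12) lies near 0, and BSD2 (-1.01) is the one named gene that fell.

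The place of a gene on its own array does not depend on any scaling between samples. Quantile normalization uses these same ranks, so the percentiles restate the quantile normalized values on another scale and are no separate evidence. The percentile of CLPS1 among all probes of the array went from 71.3 ± 4.65 in cold to 87.4 ± 0.785 in recovery (SD, n = 3). Its cold samples ranged from 66.4 to 78.0 and its recovery samples from 85.9 to 88.3. The percentile of TIG went from 14.5 ± 0.583 to 38.1 ± 5.77, with cold samples from 10.4 to 17.3 and recovery samples from 25.9 to 57.1. SPPA went from percentile 24.2 ± 2.70 to 26.5 ± 4.52, and its samples overlapped, from 11.5 to 32.7 and from 18.3 to 39.6. Its shift of 2.32 turned to -1.22 without cold sample 2 and to -0.37 without recovery sample 3. A two-sided exact permutation test over the pair means gave p = 0.1 for CLPS1 and for TIG, which is the lowest value possible with 3 against 3, and p = 0.6 for SPPA. With all 12 samples taken as independent the exact permutation p was 0.00216 for CLPS1 and for TIG and 0.628 for SPPA. The 0.00216 is the lowest value possible with 6 against 6. Neighbouring samples correlated in cold and, among the brightest 25% of probes, in recovery, so independence cannot be assumed.

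**Figure D3:**
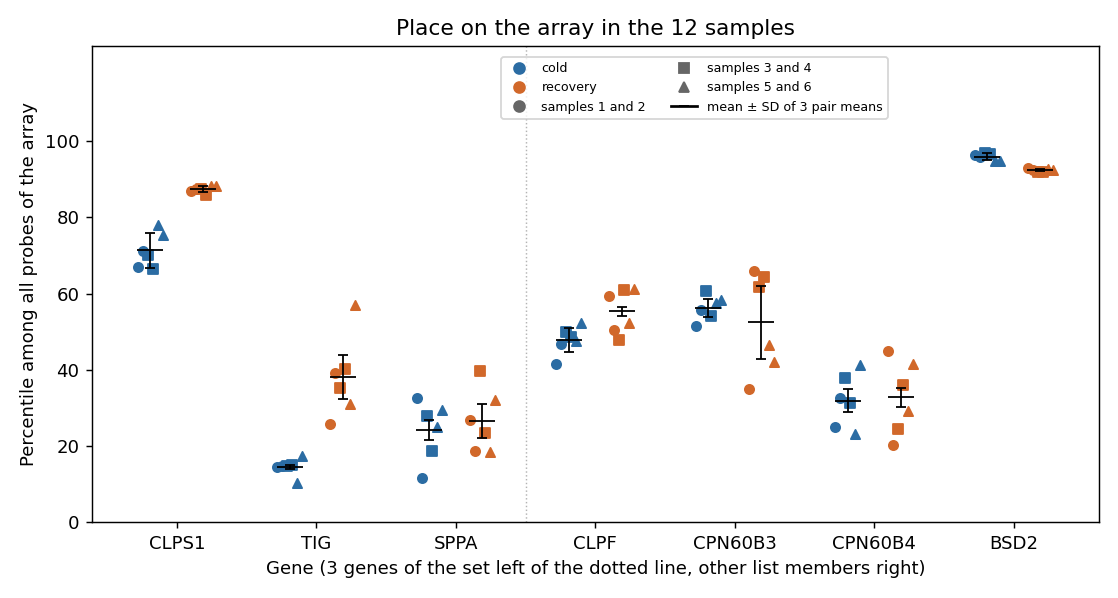
Percentile of the deposited signal among all probes of the same array for 7 genes in the 6 cold (blue) and 6 recovery (orange) samples, with the mean ± SD of the 3 pair means. CLPS1 (71.3 to 87.4) and TIG (14.5 to 38.1) stood higher in every recovery sample than in any cold sample, while SPPA (24.2 to 26.5) overlapped. After quantile normalization, which uses the same ranks, 19.0% of all probes separated upwards in this way.

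Whether the genes changed unequally was asked from the difference of their log2 values within each array. The difference between CLPS1 and SPPA went from 1.98 ± 0.157 in cold to 3.19 ± 0.266 in recovery (SD, n = 3), a shift of 1.21. The difference between TIG and SPPA went from -0.54 ± 0.239 to 0.48 ± 0.263, a shift of 1.02. Each of these shifts had an exact permutation p of 0.1, again the lowest possible (0.15 adjusted over the 3 differences). With the 12 samples taken as independent, which cannot be assumed, both gave an adjusted exact permutation p of 0.0130. CLPS1 and TIG differed from each other by 2.52 ± 0.340 in cold and 2.71 ± 0.153 in recovery, and the change of 0.19 gave an exact permutation p of 0.5. That last value depended on the scale: it was 0.52 as deposited, 0.95 when signals were brought to one median before adding the pseudocount, 0.42 with the pseudocount doubled and -0.097 with it halved. The exact permutation p was 0.1, the lowest possible, in the first 3 of these and 0.9 in the last. The shift between CLPS1 and SPPA was 2.02 when signals were brought to one median first.

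Of 66 genes listed for plastid proteolysis and folding, 7 had a probe of their own: CLPS1, TIG, SPPA and 4 others. A further 4 occurred only on probes shared by several genes and were not used. The lists had 2 of 15 members measured for the Clp protease, 1 of 22 for thylakoid and envelope proteases, 0 of 7 for processing peptidases and 4 of 22 for chaperones and assembly factors. The catalytic ClpP and ClpR subunits, the ClpC chaperones and the FtsH and Deg proteases that work on photosystem II were not analysed here. Of the 7 measured genes 2 rose (CLPS1 and TIG), 1 fell (BSD2) and 4 did not pass, and their median change was 0.12, against 0.11 over all probes. The share that passed, 3 of 7, stands beside 40.7% of all probes.

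CLPF (AT2G03390), the adaptor that works with CLPS1, did not pass. Its deposited signal had a lowest value of 0.240, a median of 0.285 and a highest value of 0.296 in cold, and 0.0885, 0.138 and 0.167 in recovery. All recovery values lay below all cold values, as for 49.2% of probes. Its change relative to the other probes was 0.28 ± 0.21 on the log2 scale (SE; n = 3 pair means per group; limma, adjusted p = 0.295), with a 95% interval from -0.17 to 0.74. As deposited it fell by 0.89 ± 0.16 (limma, adjusted p = 0.00390), close to the median probe. Whether the changes of CLPS1 and CLPF differ was not tested.

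BSD2 (AT3G47650), a zinc-finger chaperone that holds the large subunit of Rubisco during its assembly, fell after quantile normalization. Its deposited signal had a lowest value of 3.19, a median of 4.18 and a highest value of 5.11 in cold, and 1.57, 1.72 and 1.87 in recovery. The deposited signals of the groups did not overlap, as for 49.2% of probes in this direction. The quantile normalized values did not overlap either, as for 15.9% of probes in this direction. The change was -1.01 ± 0.18 on the log2 scale (SE; n = 3 pair means per group; limma, adjusted p = 0.00114). Its percentile on the array moved little, from 95.9 ± 0.942 to 92.4 ± 0.359 (SD, n = 3). The call depended on the scaling: the change was -0.070 with median centring (adjusted p = 0.749) and 0.19 when signals were brought to one median before adding the pseudocount (adjusted p = 0.396).

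The chaperonin genes CPN60B3 (AT5G56500) and CPN60B4 (AT1G26230) code for beta subunits of the Cpn60 folding chamber, the latter known for folding a subunit of the NDH complex. The deposited signal of CPN60B3 ran from 0.330 through a median of 0.346 to 0.403 in cold and from 0.0744 through 0.117 to 0.213 in recovery. That of CPN60B4 ran from 0.114 through 0.179 to 0.215 in cold and from 0.0240 through 0.0489 to 0.106 in recovery. Both were lower in every recovery sample than in any cold sample, as for 49.2% of probes. Relative to the other probes the change was -0.12 ± 0.24 for CPN60B3 (adjusted p = 0.703) and 0.021 ± 0.23 for CPN60B4 (adjusted p = 0.953; SE, n = 3 per group, limma). The 95% intervals ran from -0.65 to 0.41 and from -0.50 to 0.54.

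The 7 genes kept different distances from the median probe under 5 ways of scaling. The median change of all probes was 0.11 after quantile normalization, 0.020 with cyclic loess, 0.31 centred on medians, 0.15 scaled before the pseudocount and -0.86 as deposited. CLPS1 lay above it by 1.22, 1.10, 1.32, 1.69 and 1.32 in the same order. TIG lay above it by 1.03, 1.02, 0.80, 0.74 and 0.80. SPPA lay at 0.0100, 0.049, -0.18, -0.32 and -0.18 from the median probe. BSD2 was at -1.13, -1.12, -0.38, 0.042 and -0.38. CLPF ran from -0.026 to 0.34, CPN60B4 from -0.33 to 0.090 and CPN60B3 from -0.43 to -0.091. Centring on medians moves all probes alike, so its distances equal those as deposited, and the 5 scalings give 4 separate sets of distances. CLPS1 and TIG lay above the median probe in all 4, and BSD2 below it in 3.

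**Figure D4:**
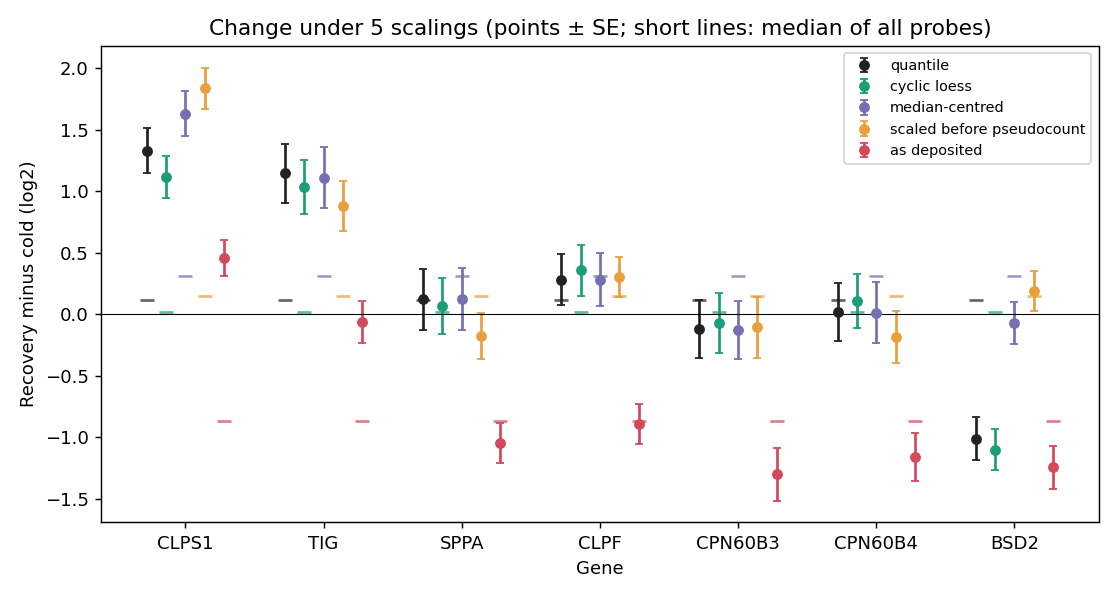
Change between recovery and cold (log2, points ± SE) of 7 genes under 5 scalings between samples, shown by colour, with the median change of all probes as short lines. CLPS1 stayed above 0 under all 5 (0.46 to 1.84), TIG under 4 (0.88 to 1.15) but not as deposited (-0.062), and BSD2 ranged from -1.24 to 0.19.

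The genes whose pattern was most like each of the 3 were sought among 503 probes with 1 gene and a mean signal above the lower quartile, by Pearson's r over the 12 samples. TIG and SPPA lay below that quartile themselves, so their matches were sought only among brighter probes. This likeness is a description. The samples share their group, so that any strong change raises r, and r over deviations from the group means is given beside it. Most like CLPS1 were LpxA (AT4G29540), with r = 0.979 and 0.692 over deviations, CUTA (AT2G33740), with 0.978 and 0.678, and CYN (AT3G23490), with 0.976 and 0.673. They rose by 1.23, 1.45 and 2.57 on the log2 scale, against 1.33 for CLPS1. Most like TIG were AT1G50390 (0.932 and 0.560), PSAN (0.930 and 0.565) and LHCB1.5, listed as LHB1B2 (0.929 and 0.622). PSAN is a subunit of photosystem I and LHCB1.5 an antenna protein of photosystem II; they rose by 2.59 and 1.44, and AT1G50390 by 0.89. Most like SPPA were AT1G68430 (0.578 and 0.584), AT1G15410 (0.535 and 0.517) and AT5G56070 (0.532 and 0.564), none of which passed the test. Over the 12 samples these values were below those for CLPS1 and TIG. The values over deviations cannot be set against those for CLPS1 and TIG. All matches were picked by r over the 12 samples, which for CLPS1 and TIG includes their shift between groups.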

How the data were processed

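The deposited table holds 1 linear signal per probe and sample, from 0 to at most 100; the authors' background correction and scaling, and the meaning of 0 and 100, are not given in the sources used here. The number of arrays limits the precision. Probes were named through the platform annotation and a RefSeq gene table (TAIR10.1, names only). The pseudocount is the 10th percentile of positive signals. The 12 log2 values per probe were quantile normalized. Neighbouring sample numbers (1 with 2, 3 with 4, 5 with 6) were averaged within a group: their deviations from the group mean correlated at 0.336 to 0.503 in cold and -0.033 to 0.063 in recovery, each above the correlation with any other sample of the group. Recovery was compared with cold in limma 3.58.1 (R 4.3.3; lmFit, eBayes with trend), with Benjamini-Hochberg adjustment over 3439 probes. The same pair number did not deviate together across groups (r = 0.056, 0.12 and -0.0050). Single quantities were tested by exact permutation. Named were the 3 genes, all measured list members, and for each of the 3 genes the 3 most correlated genes. The members and lists were chosen with earlier results of these data known. No batch is given, and a batch running along with the condition cannot be told apart from it. Figures were drawn with matplotlib 3.10.9.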

Additional observations from a re-analysis of the deposited data

Results flagged for a closer look

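In TIG, cold sample 5 stood apart from the other 5 cold samples after quantile normalization, at -4.06 on the log2 scale against a median of -3.71. It was the 1 flag among 42 groups of 6 values examined, which are 3 measures of the same 7 genes and so not independent; the limit used is one that chance passes in about 1 of 20 independent groups. Without that sample the change of TIG was 1.06 (limma, adjusted p = 0.00688).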

How the results depend on the processing

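CLPS1 kept its direction and its call under every alternative run, from 0.46 as deposited to 1.84 scaled before the pseudocount, and from 1.24 to 1.497 with 1 sample or pair left out. TIG turned to -0.062 as deposited and kept its call elsewhere (0.99 to 1.30 with 1 sample or pair left out). It and SPPA were absent from the fit without the dimmest 25% and the dimmer 50% of probes. SPPA, which never passed otherwise, was at -1.04 as deposited, where it passed as lower, -0.18 scaled before the pseudocount and -0.077 without cold sample 2 (-0.077 to 0.33 with 1 sample or pair left out). Its percentile shift ranged from -1.22 (without cold sample 2) to 5.86, and was -0.37 without recovery sample 3; those of CLPS1 and TIG ranged from 15.4 to 16.7 and 19.2 to 27.9 with 1 sample left out, and were 15.1 and 23.8 with ranks over probes of 1 gene alone. With the 12 samples taken as independent, which cannot be assumed, the percentile shifts of CLPS1 and TIG (16.0 and 23.6) passed. So did the shifts of 1.21 and 1.02 against SPPA, while 3 against 3 cannot pass. Left out 1 at a time, samples or pairs gave 0.97 to 1.45 and 0.82 to 1.22 for these, and 0.028 to 0.38 for CLPS1 against TIG, which was -0.097 with the pseudocount halved. As deposited 2216 of the 3439 probes passed, 5.58% of all probes as higher and 58.9% as lower. After quantile normalization 1399 passed, and 1084 to 1402 with 1 sample or pair left out. Of the 7 list members 6 passed as deposited (1 higher, 5 lower). After quantile normalization, and in each fit with 1 sample or pair left out, 3 of them passed. Median centring and scaling before the pseudocount each left 2 list members, as higher, where 1772 and 1406 of all probes passed. With the pair number as a replicate block 1381 probes passed and CLPS1 (1.33), TIG (1.15) and SPPA (0.12) kept their side of the threshold. The recount over list members and the scalings of the other 4 were chosen after seeing the data.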
